A study of Rattus norvegicus with 6 samples.

Results

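The genes that build cholesterol and fatty acids, together with the regulators that switch them on, were followed in the pulmonary veins (PVs) of neonatal rats with and without bilateral pulmonary vein banding (BPVB). The members were the rows of the deposited expression table whose symbol was one of 31 listed names, and all 31 names had a row among the 17833 genes of the table. They comprise 5 regulators, 7 enzymes of the mevalonate steps, 11 enzymes of the sterol steps and 8 enzymes of the fatty acid steps. The BPVB group held 3 wild type SD (Sprague-Dawley) rats whose left and right PVs were each tied over a padding needle at postnatal day 1, by the labels, so that a narrowed lumen remained once the needle was withdrawn. The sham group held 3 wild type SD rats of the same age that had the same cooling anesthesia and chest opening without the tie, and all 6 rats were reared by their mothers. PV tissue of the right upper lung lobe was taken at postnatal day 21, and 1 bulk RNA-seq library was made from each rat, with the rats drawn at random from each group.

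Cells make cholesterol from acetyl-CoA through mevalonate, farnesyl diphosphate, squalene and lanosterol, and make fatty acids from acetyl-CoA through malonyl-CoA, with elongation and desaturation afterwards. Both routes are driven by the sterol regulatory element binding proteins (SREBPs), transcription factors that are held in the endoplasmic reticulum membrane while sterols are plentiful and are carried to the Golgi and cut free when sterols run short. The product of Srebf1 is best known for the fatty acid genes and that of Srebf2 for the cholesterol genes, and oxysterols raise Srebf1 through the liver X receptors.

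The libraries held between 23439506 and 29725808 counted fragments, and the BPVB totals were all above the sham totals. Values are FPKM (fragments per kilobase of gene length, scaled to a fixed number of counted fragments), so levels are per length and per library total. All 31 members had a mean of at least 0.1 FPKM and were tested. Each member's values rested on 7 to 3331 fragments in a library, and its coefficient of variation within a group had a median of 6.76%. The limits of a bulk sample apply throughout, since fewer cells of a type and less RNA per cell cannot be told apart. The PV libraries carried the markers of a vein with a cardiac muscle sleeve: the summed FPKM of 6 cardiomyocyte markers lay between 11319 and 16415, that of 5 smooth muscle markers between 4349 and 4617 and that of 5 endothelial markers between 869.2 and 969.2.

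The members did not move as a block. In the BPVB group 7 of 31 (22.6%) were higher and 10 of 31 (32.3%) were lower than in the sham group at an adjusted p under 0.05 (limma on log2(FPKM + 0.5), two-sided, Benjamini-Hochberg over 15150 tested genes). Of all tested genes 17.2% were higher and 14.3% were lower by the same rule. The higher members were the regulators Srebf1, Scap and Insig1 and the fatty acid genes Acaca, Fasn, Scd and Me1. The lower members were the regulator Insig2, the mevalonate genes Hmgcs1, Mvd, Idi1 and Fdps, the sterol genes Sqle, Hsd17b7 and Sc5d, and the desaturases Fads1 and Fads2. The other 14 members did not pass the threshold. Log2 fold changes ran from -0.75 (Fads2) to 0.57 (Scd) with a median of -0.16 (-0.09 without sham 1), beside a median of 0.02 over all tested genes. By limma and by limma-voom, 0 members reached the thresholds for differentially expressed genes (DEGs), an adjusted p under 0.05 with an absolute log2 fold change above 1. By limma 3.27% of the tested genes passed them (2.24% higher and 1.03% lower in BPVB). By limma-voom 1122 of its 16413 tested genes passed them.

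**Figure D1:**
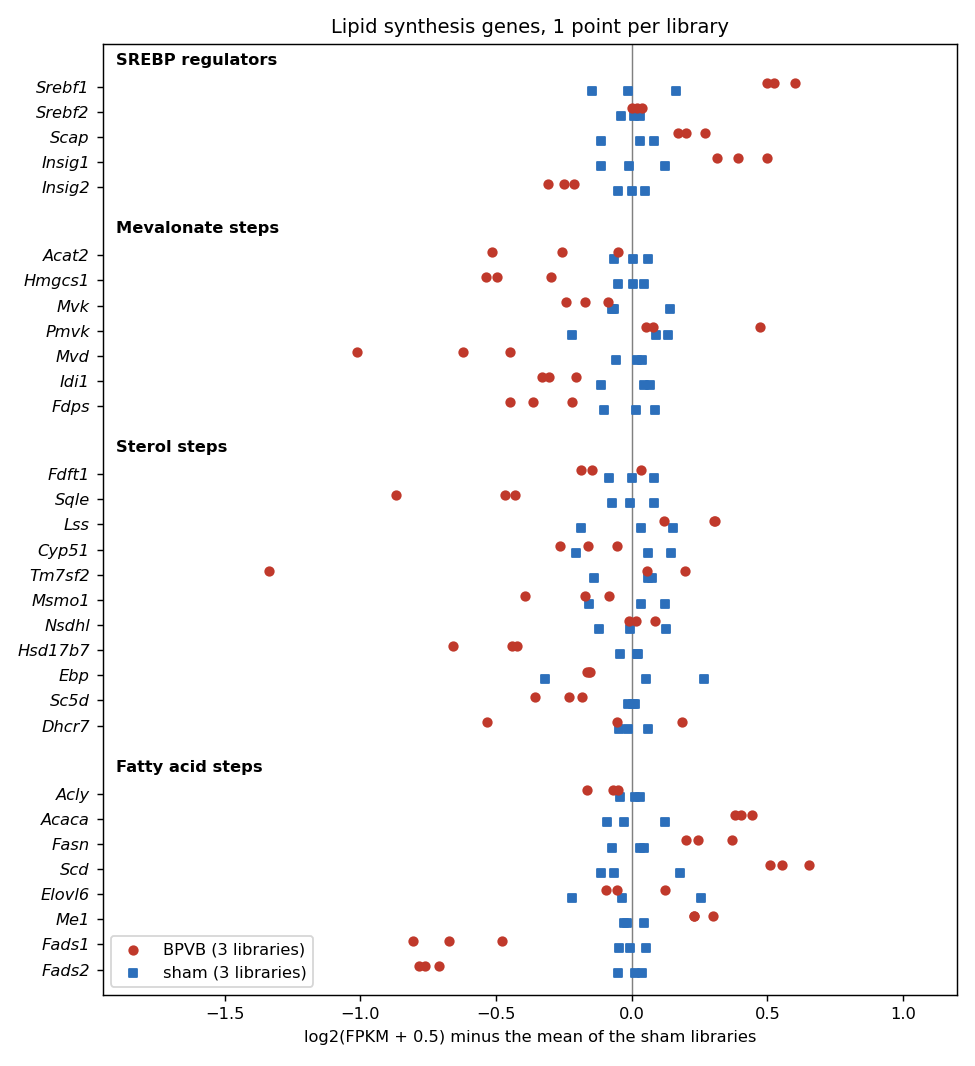
Expression of the 31 members in each library, as log2(FPKM + 0.5) minus the mean of the 3 sham libraries, with red circles for BPVB and blue squares for sham. Of the members 7 lay above every sham library in all BPVB libraries and 12 lay below, and the far left circle in the Tm7sf2 row is BPVB 1.

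The groups did not overlap for 19 of the 31 members, beside 45.6% of all tested genes. The 3 BPVB values lay above the 3 sham values for 7 members and below them for 12, where Mvk and Acly joined the 10 members called lower. Over all tested genes the corresponding shares were 25.2% and 20.5%. Of the 18 mevalonate and sterol enzymes, 0 were called higher and 7 (38.9%) were called lower by limma, and 15 of 18 had a negative log2 fold change. Without BPVB 2, and likewise without sham 1, 3 mevalonate enzymes and 1 sterol enzyme were called lower. At an unadjusted p under 0.05 the counts were again 0 and 7 (22.8% and 19.2% of all tested genes), and limma-voom on recovered fragments gave 0 and 6. Over all of its 16413 tested genes, limma-voom called 3027 higher and 2559 lower. The 18 enzymes had a median log2 difference from the sham mean of -0.19, -0.18 and -0.25 in the 3 BPVB libraries and of 0.03, 0.01 and -0.03 in the 3 sham libraries.

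The start sites of the members were read from RefSeq (build GRCr8, window of 250 bases before to 50 bases after each start), since genes of this set moved in opposite directions. An entry was found for 25 of the 31 members. The pentamer CCAAT, the core of the box bound by nuclear factor Y, a partner of the SREBPs at cholesterol gene promoters, was present on either strand in the windows of 18 of 25 members (72%), beside 39.6% of 27457 genes with an entry. It was held by 8 of the 9 lower members with an entry, by 2 of the 5 higher members and by 8 of the 11 members that passed neither way. By role it was found in 5 of 6 mevalonate genes, 7 of 9 sterol genes, 4 of 5 regulators and 2 of 5 fatty acid genes. The sterol regulatory element written TCACNCCAC was found in 0 of 25 members and in 1.25% of genes, which says only that these letters are not in these windows. The E-box CACGTG was found in 3 of 25 members (Scap, Insig1 and Sc5d) and in 7.08% of genes. The shares of genes are over all genes with an entry, including genes not tested here, whereas all members were tested, so the sets are unlike. Each share is a description of letters and no site was measured here.

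The stretches below are those around the boxes of lower members from each role and, for contrast, of the higher members Insig1 and Srebf1. They are written 5′ to 3′ on the strand of the gene, with the box in capitals (CCAAT, or ATTGG where it lies on the opposite strand). Hmgcs1, Fdps and Idi1 each show a pair of boxes and Hsd17b7 shows 3, whereas those of Fads1, Insig2 and Insig1 show 1. The number of boxes did not follow the calls. Mvk and Nsdhl, which were not called, hold 5 each and Msmo1, also not called, holds 3. Srebf1, which was higher, shows a pair at start B. The window of Mvd holds 2, of which the one that lies wholly before the start is printed. Srebf1 has 2 annotated starts, which are given separately.
Hmgcs1, chr2:53382106-53382185, plus strand: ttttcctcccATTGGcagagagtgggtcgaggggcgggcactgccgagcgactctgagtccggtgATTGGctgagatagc
Fdps, chr2:176804887-176804956, minus strand: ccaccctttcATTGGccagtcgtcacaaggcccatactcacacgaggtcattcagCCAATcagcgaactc
Idi1, chr17:66547545-66547600, minus strand: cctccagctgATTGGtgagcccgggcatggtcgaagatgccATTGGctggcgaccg
Mvd, chr19:67414995-67415019, minus strand: cccgtcgcctATTGGacggcacggg
Hsd17b7, chr13:84722765-84722940, minus strand: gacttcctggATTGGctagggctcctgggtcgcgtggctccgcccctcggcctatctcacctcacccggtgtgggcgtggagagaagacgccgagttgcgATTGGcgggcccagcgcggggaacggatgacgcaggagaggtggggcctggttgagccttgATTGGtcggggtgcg
Fads1, chr1:216252561-216252585, plus strand: ctcggctcagCCAATgggagggcgc
Insig2, chr13:35040145-35040169, minus strand: ccattgagacATTGGtctgcttcag
Insig1, chr4:8057948-8057972, minus strand: ccctcctcccATTGGctcccgcggc
Srebf1, start A, chr10:45529319-45529343, minus strand: tgtggcttccATTGGaccccttgcc
Srebf1, start B, chr10:45519104-45519151, minus strand: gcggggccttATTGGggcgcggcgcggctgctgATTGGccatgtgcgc

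Among the 5 regulators, 3 were higher (Srebf1, Scap and Insig1), 1 was lower (Insig2) and Srebf2 did not pass the test. Srebf1, the SREBP gene of fatty acid synthesis, stood at 5.31, 5.01 and 4.92 FPKM in the BPVB libraries and at 3.79, 2.96 and 3.29 FPKM in the sham libraries. All BPVB values lay above all sham values. The mean was 5.08 ± 0.205 FPKM against 3.35 ± 0.418 (SD, n = 3 each), a rise of 51.8% with a log2 fold change of 0.54 (SE 0.104, limma adjusted p = 0.00406). Srebf2, the SREBP gene of cholesterol synthesis, stood at 10.1, 9.81 and 9.92 FPKM in the BPVB libraries and at 9.84, 10.0 and 9.52 FPKM in the sham libraries. The groups overlapped, with a log2 fold change of 0.02 (SE 0.0594, limma adjusted p = 0.843). The FPKM ratio of Srebf1 to Srebf2 was accordingly 0.512 ± 0.0161 in the BPVB group and 0.342 ± 0.0449 in the sham group (SD, n = 3 each).

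The paired anchors of the SREBP complex changed in opposite directions. Insig1, whose protein keeps the complex in the endoplasmic reticulum and which is itself an SREBP target, stood at 20.2, 17.7 and 18.7 FPKM in the BPVB libraries and at 13.0, 14.0 and 15.4 FPKM in the sham libraries. The groups did not overlap, and the mean was 33.1% higher (log2 fold change 0.40, SE 0.0755, limma adjusted p = 0.00371). Insig2, its paralog with a similar anchoring role, stood at 11.4, 10.6 and 11.1 FPKM in the BPVB libraries and at 12.8, 13.7 and 13.3 FPKM in the sham libraries. Here all BPVB values lay below all sham values, with a log2 fold change of -0.26 (SE 0.0594, limma adjusted p = 0.0104). The FPKM ratio of Insig1 to Insig2 was 1.71 ± 0.0565 in the BPVB group and 1.07 ± 0.0827 in the sham group (SD, n = 3 each). Scap, which escorts the SREBPs to the Golgi, stood at 14.4, 15.1 and 14.1 FPKM in the BPVB libraries and at 11.5, 13.2 and 12.7 FPKM in the sham libraries. The BPVB values were all higher, by 16.4% in the mean (log2 fold change 0.21, SE 0.0671, limma adjusted p = 0.0398). This call was a narrow one: over the 6 fits that left out 1 library each, the limma adjusted p ran from 0.0358 (without sham 2) to 0.119 and was under 0.05 in that 1 fit only.

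Limma called 0 of the 7 mevalonate enzymes higher and 4 lower, and the median of their log2 fold changes was -0.28. At an unadjusted p under 0.05 the counts were the same, and limma-voom gave 0 higher and 3 lower. Summed over the 7 genes, FPKM ran from 72.7 to 80.1 in the BPVB libraries and from 88.7 to 93.5 in the sham libraries. Hmgcs1, which condenses acetoacetyl-CoA with acetyl-CoA, stood at 12.9, 10.9 and 11.2 FPKM in the BPVB libraries and at 16.6, 16.1 and 15.5 FPKM in the sham libraries. The groups lay well apart, with a mean of 11.7 ± 1.10 against 16.0 ± 0.561 FPKM (SD, n = 3 each) and a log2 fold change of -0.44 (SE 0.0733, limma adjusted p = 0.00181). Mvd, which decarboxylates mevalonate diphosphate to isopentenyl diphosphate, stood at 2.44, 1.49 and 2.11 FPKM in the BPVB libraries and at 3.57, 3.62 and 3.36 FPKM in the sham libraries. It had the most negative log2 fold change of the mevalonate enzymes, -0.69 (SE 0.148, limma adjusted p = 0.00705). Its mean fell by 42.7%, over values of 65 to 142 fragments in a library.

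Further along the route, Fdps, which joins isoprene units into farnesyl diphosphate, was the most abundant of the cholesterol enzymes in FPKM. It stood at 27.3, 32.2 and 29.1 FPKM in the BPVB libraries and at 37.9, 34.9 and 39.9 FPKM in the sham libraries. The groups did not overlap and the log2 fold change was -0.34 (SE 0.0692, limma adjusted p = 0.00523). Idi1, the isomerase that interconverts the isoprene units, stood at 4.50, 4.17 and 4.09 FPKM in the BPVB libraries and at 5.54, 5.46 and 4.84 FPKM in the sham libraries. Again every BPVB value was the lower, with a log2 fold change of -0.28 (SE 0.0899, limma adjusted p = 0.0425). The Idi1 call was narrow: without 1 library the adjusted p ran from 0.0368 (without sham 3) to 0.124 and passed in that 1 fit only, and it was 0.07 in limma-voom.

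The remaining mevalonate enzymes did not pass. Acat2, the cytosolic thiolase that makes acetoacetyl-CoA, had a log2 fold change of -0.27 (SE 0.126, limma adjusted p = 0.134), with BPVB 1 at 4.02 FPKM inside the sham range of 3.99 to 4.39. Its log2 fold change was -0.39 without BPVB 1 (adjusted p = 0.0489) and -0.15 without BPVB 2 (adjusted p = 0.364). Mvk, the kinase of mevalonate, lay at 7.14 to 8.02 FPKM in the BPVB libraries and at 8.09 to 9.47 FPKM in the sham libraries, with a log2 fold change of -0.17 (SE 0.0844, limma adjusted p = 0.169) that was -0.10 without sham 3. Pmvk, the kinase that follows it, was the 1 mevalonate gene with a positive log2 fold change, 0.20 (SE 0.128, limma adjusted p = 0.267), and its highest value, 21.1 FPKM, came from BPVB 2. Without that library its log2 fold change was 0.07, and without sham 1 it was 0.09.

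Of the 11 sterol enzymes, which turn farnesyl diphosphate into squalene, lanosterol and cholesterol, limma called 0 higher and 3 lower (median log2 fold change -0.16). The unadjusted p and limma-voom each gave 0 higher and 3 lower, and limma called 1 lower without BPVB 2 and likewise without sham 1. Sqle, the squalene epoxidase and a slow step of the route, stood at 3.20, 3.11 and 2.23 FPKM in the BPVB libraries and at 4.24, 4.47 and 4.77 FPKM in the sham libraries. The mean fell by 36.6%, without overlap, and the log2 fold change was -0.59 (SE 0.132, limma adjusted p = 0.00892). Hsd17b7, a ketone reductase of the sterol ring and the member with the lowest mean FPKM, stood at 0.705, 0.523 and 0.689 FPKM in the BPVB libraries and at 1.14, 1.14 and 1.07 FPKM in the sham libraries. Its groups did not overlap, with a log2 fold change of -0.51 (SE 0.129, limma adjusted p = 0.0162), which the pseudocount of 0.5 reduces at such a level, limma-voom giving -0.81. Its adjusted p was 0.0566 without BPVB 2 and 0.0507 without sham 1. Sc5d, a late desaturase of the sterol ring, stood at 4.97, 4.78 and 4.35 FPKM in the BPVB libraries and at 5.72, 5.76 and 5.64 FPKM in the sham libraries. All BPVB values were the lower, with a log2 fold change of -0.26 (SE 0.0825, limma adjusted p = 0.0428), but the adjusted p lay between 0.0517 and 0.125 whichever library was left out.

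The other 8 sterol enzymes did not pass. Lss, the cyclase that forms lanosterol, had a log2 fold change of 0.24 (SE 0.119, limma adjusted p = 0.158), with 3.12 to 3.63 FPKM in the BPVB libraries and 2.43 to 3.21 FPKM in the sham libraries. Without sham 2 it was 0.15. Fdft1, the squalene synthase, Cyp51, the lanosterol demethylase, and Msmo1, a later demethylating oxidase, had log2 fold changes of -0.10, -0.16 and -0.22 with overlapping groups (limma adjusted p = 0.341, 0.261 and 0.125). With 1 library left out, Fdft1 ran from -0.17 (without BPVB 1) to -0.06 (without BPVB 2 and likewise without sham 1), Cyp51 from -0.26 (without sham 3) to -0.09 (without sham 1), and Msmo1 from -0.29 (without sham 3) to -0.13 (without BPVB 1), none of them called. Nsdhl, a dehydrogenase of the same demethylation, differed by 0.03 (limma adjusted p = 0.825). Ebp, a sterol isomerase, lay at 9.49 to 9.58 FPKM in the BPVB libraries, inside the sham values of 13.0, 8.49 and 11.1 FPKM. Its log2 fold change was -0.16 (limma adjusted p = 0.388), and ran from -0.32 without sham 2 (adjusted p = 0.0251) to -0.03 without sham 1 (adjusted p = 0.888). Dhcr7, the reductase that yields cholesterol, ranged from 1.06 (BPVB 3) to 2.06 FPKM (BPVB 1) in the BPVB group around sham values of 1.68 to 1.85 FPKM, and had a log2 fold change of -0.13 (limma adjusted p = 0.612), which was -0.29 without BPVB 1 and 0.06 without BPVB 3. Tm7sf2, a sterol reductase, had the widest spread of all members. It stood at 0.179, 1.46 and 1.28 FPKM in the BPVB libraries, from 7, 56 and 56 fragments, and at 1.29, 1.31 and 1.06 FPKM in the sham libraries. The low value of BPVB 1 set its log2 fold change of -0.36 (SE 0.354, limma adjusted p = 0.481), which was 0.13 without that library.

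**Figure D2:**
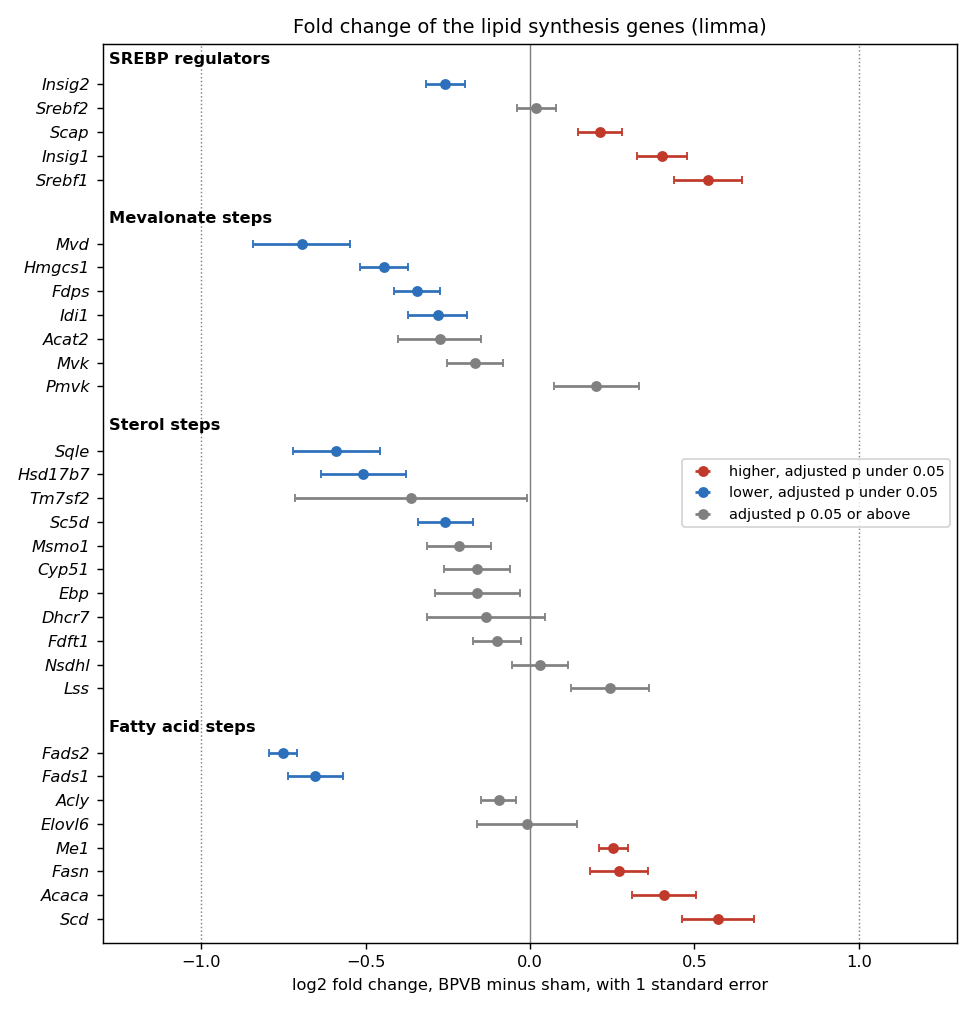
Log2 fold change (BPVB minus sham) of each member from limma, with a bar of 1 standard error either side and dotted lines at an absolute log2 fold change of 1. Red marks the 7 members called higher, blue the 10 called lower and grey the other 14, and no mevalonate or sterol enzyme is red.

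The 8 fatty acid genes split into both directions, with 4 higher and 2 lower, and their median log2 fold change of 0.12 lay between them. The median moved when a library was left out. Elovl6, 1 of the 2 middle genes, ran from -0.12 (without sham 3) to 0.12 (without sham 1). The higher genes, Scd, Acaca, Fasn and Me1, act in the making of saturated and monounsaturated fatty acids, and the lower genes, Fads1 and Fads2, in that of polyunsaturated ones. Scd, the stearoyl-CoA desaturase that places the double bond of oleate, stood at 4.03, 4.16 and 4.50 FPKM in the BPVB libraries and at 3.10, 2.44 and 2.54 FPKM in the sham libraries. The groups did not overlap, and the mean rose by 57.1% (log2 fold change 0.57, SE 0.110, limma adjusted p = 0.00423). Acaca, the carboxylase that makes malonyl-CoA and commits carbon to fatty acid synthesis, stood at 3.94, 3.87 and 4.07 FPKM in the BPVB libraries and at 3.16, 2.79 and 2.65 FPKM in the sham libraries. All BPVB values were higher, by 38.1% in the mean (log2 fold change 0.41, SE 0.0980, limma adjusted p = 0.0125).

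Fasn, the fatty acid synthase itself, stood at 5.19, 5.02 and 5.71 FPKM in the BPVB libraries and at 4.46, 4.40 and 4.07 FPKM in the sham libraries. The groups did not overlap and the log2 fold change was 0.27 (SE 0.0879, limma adjusted p = 0.0442), yet the adjusted p lay between 0.0592 and 0.136 whichever library was left out. Me1, the malic enzyme that supplies NADPH for synthesis, stood at 30.8, 32.4 and 30.8 FPKM in the BPVB libraries and at 27.1, 25.9 and 25.7 FPKM in the sham libraries. It rose by 19.5% with little spread in either group (log2 fold change 0.25, SE 0.0443, limma adjusted p = 0.00251). Acly, the lyase that provides cytosolic acetyl-CoA to both routes, lay at 17.1 to 18.56 FPKM in the BPVB libraries and at 18.65 to 19.6 FPKM in the sham libraries, with a log2 fold change of -0.09 (SE 0.0528, limma adjusted p = 0.210) that was -0.06 without BPVB 1. Elovl6, the elongase of palmitate, had a log2 fold change of -0.01 (SE 0.152, limma adjusted p = 0.974) at 0.975 to 1.55 FPKM in the 6 libraries.

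Both desaturases of polyunsaturated fatty acids were lower. Fads2, which opens the conversion of linoleic and alpha-linolenic acid to longer products, stood at 26.3, 25.3 and 24.9 FPKM in the BPVB libraries and at 43.5, 41.8 and 44.4 FPKM in the sham libraries. The groups lay far apart relative to their spread, at 25.5 ± 0.699 against 43.2 ± 1.35 FPKM (SD, n = 3 each). Its log2 fold change of -0.75 (SE 0.0432) had the smallest adjusted p among the members, 3.21e-06 by limma. Fads1, which carries out a later desaturation of the same series, stood at 11.7, 10.6 and 13.5 FPKM in the BPVB libraries and at 18.9, 18.3 and 19.7 FPKM in the sham libraries. It fell by 37.1% in the mean, without overlap (log2 fold change -0.65, SE 0.0832, limma adjusted p = 0.000408). The FPKM ratio of Fads1 to Fads2 overlapped between the groups, at 0.469 ± 0.0639 in BPVB and 0.438 ± 0.0049 in sham (SD, n = 3 each). In the sham libraries Fads2 had the highest mean FPKM of the 31 members, whereas in the BPVB libraries it lay below every value of Me1 and of Fdps.

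Fads1 and Fads2 are neighbours in the RefSeq gene order (GRCr8) and are read from opposite strands, with Fads3 beside Fads2. Fads3, a related desaturase of other substrates that is no member, lay at 21.0 ± 1.04 FPKM in BPVB and 23.1 ± 1.84 FPKM in sham (SD, n = 3 each), with a log2 fold change of -0.13 (SE 0.0663, limma adjusted p = 0.176). Of this pair of neighbours, the window of Fads1 holds the CCAAT box printed above and that of Fads2 holds 0.

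Other genes around the members were described from 5 lists of lipid genes, which together held 67 names. Of the 11 genes that process or turn over the SREBPs, 1 was higher and 0 were lower by limma (3 and 0 at an unadjusted p under 0.05, 2 and 0 in limma-voom). The higher gene was Pgrmc1, which encodes a heme-binding membrane protein that associates with sterol enzymes and with INSIG, at 52.7 ± 2.42 against 40.7 ± 0.999 FPKM (log2 fold change 0.37, limma adjusted p = 0.000272). Of 11 further sterol and isoprenoid enzymes, 0 were higher and 2 were lower by limma (1 and 3 at an unadjusted p under 0.05, 0 and 2 in limma-voom). Both lower genes, Pdss1 and Pdss2, encode the subunits of the enzyme that makes the side chain of coenzyme Q from farnesyl diphosphate. They had log2 fold changes of -0.42 and -0.41 (limma adjusted p = 0.0125 and 0.0130).

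Of 15 genes that take up, store or export sterols, limma called 6 higher and 1 lower (median log2 fold change 0.07). The DEG among them was Abca1, the exporter of cellular cholesterol and a target of the liver X receptors, which stood at 7.36, 7.36 and 7.81 FPKM in the BPVB libraries and at 3.49, 3.11 and 2.90 FPKM in the sham libraries. The groups lay far apart (log2 fold change 1.13, SE 0.0906, limma adjusted p = 2.54e-05). Of 8 genes of glycerolipid assembly and lipid droplets, limma called 6 higher and 0 lower (6 and 1 at an unadjusted p under 0.05, 6 and 0 in limma-voom). The median of their log2 fold changes was 0.32. Those with the largest changes were Agpat2 (0.78, limma adjusted p = 0.00271) and Gpam (0.46, limma adjusted p = 0.000579), acyltransferases that build phosphatidic acid. Of 21 other fatty acid genes tested (Hacd2 was not analysed here), 5 were higher and 1 was lower, and the DEG was Thrsp, a nuclear protein gene that follows lipogenic state, at 14.1 ± 0.515 against 5.90 ± 1.32 FPKM (log2 fold change 1.21, SE 0.131, limma adjusted p = 0.000153).

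**Figure D3:**
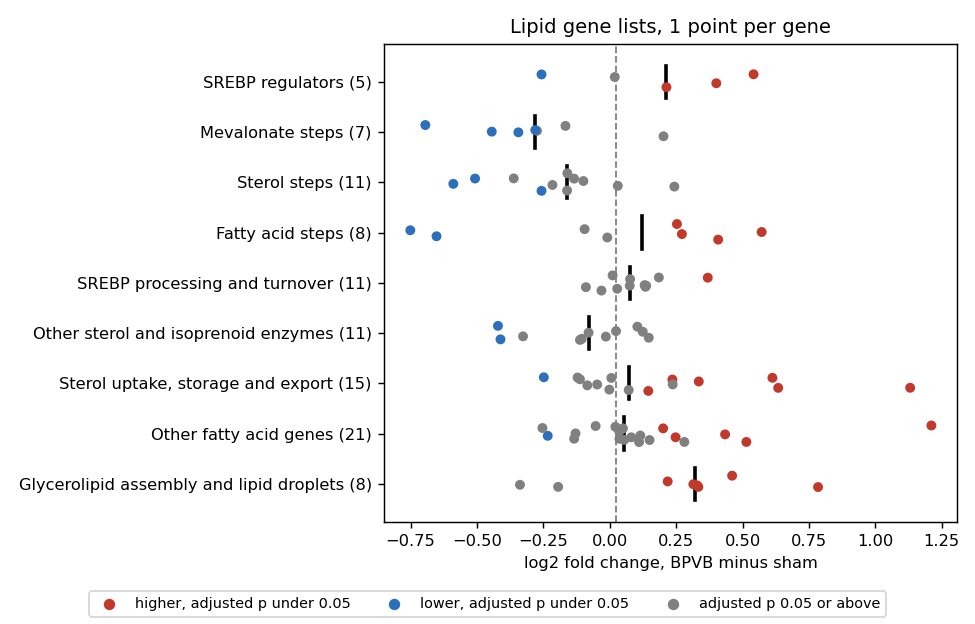
Log2 fold change (BPVB minus sham) from limma for each gene of the 4 member groups and of 5 further lipid gene lists, with the number of tested genes in brackets. The black bar is the median of a list and the dashed line the median of all tested genes, 0.02, and the lists of mevalonate and sterol steps have their medians on the left and glycerolipid assembly on the right.

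The KEGG pathway names in the deposited annotation gave further lists, which were chosen after values had been seen. Their counts in part repeat calls given above. Of 22 tested genes of terpenoid backbone biosynthesis, of which 7 are members, limma called 2 higher and 7 lower (median log2 fold change -0.14). The lower genes included the members Hmgcs1, Mvd, Idi1 and Fdps, and also Pdss1 and Pdss2 named above. The higher genes included Pcyox1, a lyase that recycles prenylcysteine (log2 fold change 0.30, limma adjusted p = 0.00473). Of 17 tested genes of steroid biosynthesis, of which 11 are members, 1 was higher and 3 were lower, and the 3 lower genes were all members. The higher gene was Soat1, which esterifies cholesterol for storage, at 11.1 ± 1.72 against 7.02 ± 0.482 FPKM (log2 fold change 0.61, SE 0.108, limma adjusted p = 0.00267). On the fatty acid side the calls went both ways. Limma called 4 higher and 4 lower of 17 tested genes of fatty acid biosynthesis (2 are members, median log2 fold change 0.05), and 6 higher and 4 lower of 27 tested genes of biosynthesis of unsaturated fatty acids (4 are members, median log2 fold change 0.04).

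Markers of several cell types moved between the groups beside these results. Of 9 alveolar type 2 markers, cells that make surfactant lipid and use the fatty acid route heavily, 8 were higher and 0 lower, and their summed FPKM was 557.7 to 602.8 in the BPVB libraries and 65.5 to 67.4 in the sham libraries. Its most abundant marker Sftpc had a log2 fold change of 3.40 (limma adjusted p = 8.65e-10). Of 9 adipocyte markers 6 were higher, each of them a DEG, and 1 was lower. Adipoq stood at 17.9 to 19.4 FPKM against 4.76 to 8.13. Fabp4, which made up most of the sum, stood at 1297 ± 22.6 against 1299 ± 5.76 FPKM. The adipocyte sum was 1371 to 1414 in the BPVB libraries and 1344 to 1355 in the sham libraries. It mostly reflects Fabp4 and hides the rise of the 6 higher markers.

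Schwann cells, which make cholesterol for myelin, had 1 of 8 markers higher and 6 lower, with a sum of 142.7 to 145.7 FPKM in the BPVB libraries and 225.3 to 229.9 in the sham libraries. Of 7 macrophage markers tested (Marco was not analysed here), 6 were higher and 0 lower, with a sum of 655.1 to 677.2 FPKM against 211.8 to 217.2. All 5 markers of cycling cells were higher, with a sum of 33.3 to 34.0 FPKM against 11.8 to 14.1. Of the 6 cardiomyocyte markers 2 were higher and 4 lower, with a sum in BPVB of 0.713 times that in sham, and the corresponding ratios were 0.953 for 5 smooth muscle, 0.909 for 5 endothelial and 1.05 for 4 fibroblast markers. No marker was at 0 in these libraries. The part of these cell type differences in the values of the lipid synthesis genes was not tested.

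**Figure D4:**
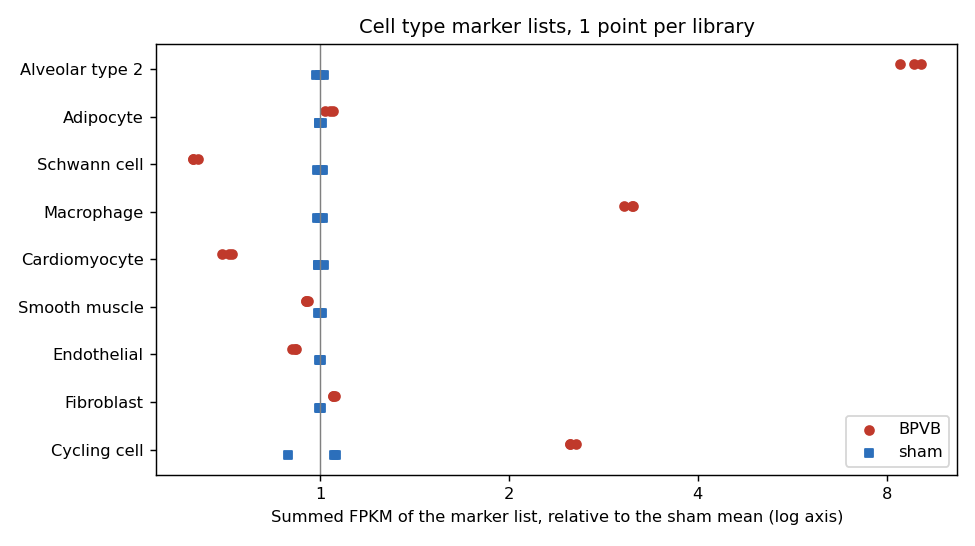
Summed FPKM of each cell type marker list in each library, divided by the mean of the 3 sham libraries, on a log axis, with red circles for BPVB and blue squares for sham. Alveolar type 2, macrophage and cycling cell sums lie above sham in all BPVB libraries at mean ratios of 8.77, 3.12 and 2.52, and the Schwann cell sum lies below at 0.631. The adipocyte sum is mostly Fabp4.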

How the data were processed

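Bulk RNA-seq values of 6 PV libraries, 3 BPVB and 3 sham, were used, and the sample labels gave each library's group. Per the methods and labels, RNA was extracted with TRIzol, and reads were cleaned with fastp, mapped with HISAT (HISAT2 2.0.5 in the submitters' processing notes) and counted per gene. The methods name HTSeq-count, and the submitters' processing notes name featureCounts 1.5.0-p3, StringTie 1.3.3b and DESeq2 1.20.0. The library kit also differs between them (VAHTS Universal V6 in the methods, NEBNext Ultra in the labels). The genome build, annotation and strand setting are not given in the sources used here, so reads of overlapping or antisense genes cannot be told apart. The authors deposited the values as FPKM for 17833 genes.

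The members and gene lists were chosen with earlier results of these data known. Every member was named. Of each further lipid list, DEGs were named, or otherwise the 2 genes with the largest called change. Fads3, Soat1, Pcyox1 and Adipoq were named after their values were seen. Some genes of the lists are not reported here.

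Groups were compared with limma 3.58.1 in R 4.3.3 (lmFit, eBayes with a trend) on log2(FPKM + 0.5) for the 15150 genes whose FPKM averaged 0.1 or more, with Benjamini-Hochberg adjustment. Fold changes are on this scale and understate those of low genes. Tested on simulated data with 15156 genes, the step called 190 of 200 genes changed 1.5-fold, 200 of 200 changed 4-fold and 14 of 14756 unchanged genes. The simulation gave every gene the same small dispersion and changed only genes with many fragments. Its shares therefore need not hold for members with a wider spread, fewer fragments or smaller changes. Fragment counts were recovered from the whole-number steps of each gene's FPKM (tolerance 0.0001 fragments) and gave library totals of 23439506 to 29725808. They were used for depth and for limma-voom, as an alternative. Motifs were searched in RefSeq promoter windows. In all, 16 alternatives were run: pseudocounts of 0.1 and 1, other filters, median of ratios, quantile and TPM scaling, voom, a replicate block, robust eBayes and each library left out. Python 3.11.15 with pandas 2.3.3 and matplotlib 3.10.9 made the tables and plots.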

Additional observations from a re-analysis of the deposited data

How the results depend on the processing

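Over 16 alternatives the counts of members called higher and lower, 7 and 10 in the results above, ran from 5 to 7 and from 7 to 10, and 0 members were DEGs in each. Of 495 values for single members, 445 kept their direction and their side of the threshold, 37 lost the call, 2 gained it and 11 changed sign. The sign changes were all in members without a call: Srebf2 (-0.0063 under median of ratios, -0.0084 under quantile scaling and from -0.0007 without sham 3 to 0.0344 without sham 2), Nsdhl (-0.0001 under quantile scaling and from -0.0307 without sham 1 to 0.0935 without sham 3), Tm7sf2 (-0.6401 without BPVB 2 to 0.1259 without BPVB 1), Dhcr7 (-0.2933 without BPVB 1 to 0.0647 without BPVB 3) and Elovl6 (0.0174 under TPM, and -0.1186 without sham 3 to 0.1182 without sham 1). Srebf1, Insig1, Insig2, Hmgcs1, Mvd, Fdps, Sqle, Acaca, Scd, Me1, Fads1 and Fads2 kept their call and direction under each of the 16. Scap, Idi1, Sc5d and Fasn lost their calls most often, and Scap and Fasn lost them under both median of ratios (adjusted p = 0.0624 and 0.0609) and quantile scaling (0.0545 and 0.0797). The count of sterol enzymes called lower was 3, and ran from 1 to 3 when a library was left out, being 1 without BPVB 2 and without sham 1. The median log2 fold change of the members was -0.16, and ran from -0.1565 to -0.0892 (without sham 1) when a library was left out. Over all genes, 496 DEGs became 901 and 325 with pseudocounts of 0.1 and 1, and 1122 in limma-voom, which also differs in its filter, input and weights (the cause was not tested). With the replicate number as a block, 6 members were higher and 8 lower, with Fasn, Idi1 and Sc5d (adjusted p = 0.0848, 0.0590 and 0.0720) no longer called. Deviations of same-numbered libraries correlated at 0.0255, 0.0136 and 0.0153, and each library was best with its own number. Values this small cannot decide whether same-numbered libraries were paired. The main fit used no pairing. Depth limits the members of few fragments, such as Tm7sf2, Elovl6 and Hsd17b7.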
